A study of Pleurotus ostreatus with 4 samples.

Results

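The switch-on plateau sequences of the oyster mushroom Pleurotus ostreatus are 90 of 51131 transcript sequences that were far higher in all fruiting stages than in vegetative mycelium and stayed within a limited range among those stages. They were chosen from the deposited values, FPKM (fragment numbers divided by the length of the sequence and by the size of the library), on the scale log2(FPKM + 1). The lowest value of primordium, young and mature fruit body had to lie at least 3 above mycelium, an 8-fold difference of FPKM + 1. The highest and lowest of the 3 fruiting stages had to differ by less than 1, which is less than 2-fold of FPKM + 1. The rise above mycelium and the flatness of the fruiting profile are therefore given as descriptions, with no test.

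All material came from wild-type strain P739, sampled as mycelium and as primordium, as young fruit body and as mature fruit body, the 3 fruiting stages. There was 1 RNA-seq library for each stage, so no difference could be set against a spread between replicates. The number of cultures or mushrooms behind a library is not given by the labels. The libraries were of nearly even depth, between 15048631 and 15691317 fragments as recovered from the steps of the FPKM values. The mycelium library stood apart in its composition, since 1 sequence that is no member took 9.75% of its summed FPKM, against 1.69% to 2.28% for the leading sequence of each fruiting library.

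Mushroom formation begins when the loosely spread hyphae of the mycelium aggregate into a compact knot, the primordium, in which stipe, cap and gills are laid out. The young fruit body expands from it, and the mature fruit body carries the gills on which spores are borne. In mushroom-forming fungi this change is known for the production of hydrophobins (small surface proteins that make aerial hyphae water-repellent), lectins and enzymes that remodel the cell wall. P. ostreatus fruit bodies are also known for aegerolysins, small membrane-binding proteins. Which of the 90 sequences, if any, encode such proteins cannot be said, since the table pairs no identifier with a gene name. By name, 0 of its 51131 identifiers were found among the 11849 RefSeq genes of strain PC9. The identifiers are running labels and not gene names, so this does not show whether the sequences are in that genome. Members are given by identifier or by recovered length, the function of none is stated, and no sequence is printed here. For the same reason the labelled stages could not be checked against marker genes.

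All 90 members passed a minimum of 1 FPKM in at least 1 library, as did 22307 sequences in all, of which the members are 0.403%. They consisted of 51 contigs from 36 clusters and 39 unigenes (sequences outside any cluster), 75 clusters and unigenes in all. Contigs made up 56.7% of the members and 61.8% of the 22307 compared sequences. Member lengths ran between 206 and 10901 nt, with a median of 1725 nt (quartiles 879 and 2951 nt). Of the members, 10 (11.1%) were shorter than 500 nt. Over all compared sequences the median was 1265 nt, and 24.2% were shorter than 500 nt. The 5245 other sequences with a flat fruiting profile had at least 5 FPKM in each fruiting stage and a range below 1, whatever the mycelium level. Their median was 1778 nt, and 9.46% were shorter than 500 nt. Lengths are the shortest that give whole fragment numbers in all libraries, so a length may be understated by a whole factor.

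As a body, the members were a trace component of the mycelium transcriptome and a sizeable one of each fruiting stage. They summed to 423 FPKM in mycelium, 25283 FPKM in primordium, 24029 FPKM in young fruit body and 24923 FPKM in mature fruit body. These sums were 0.0710%, 4.76%, 4.51% and 4.64% of the summed FPKM of the libraries, in the same order. The 3 fruiting sums lay close together, as the choice of members favours, and all were far above the mycelium sum. Of the recovered fragments, the members took 0.122% in mycelium (95% Wilson interval 0.121% to 0.124%), 4.09% in primordium (4.08% to 4.10%), 4.25% in young fruit body (4.24% to 4.26%) and 4.03% in mature fruit body (4.02% to 4.04%). Such intervals cover counting error only. In bulk RNA, more cells of a kind and more RNA per cell cannot be told apart.

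**Figure D1:**
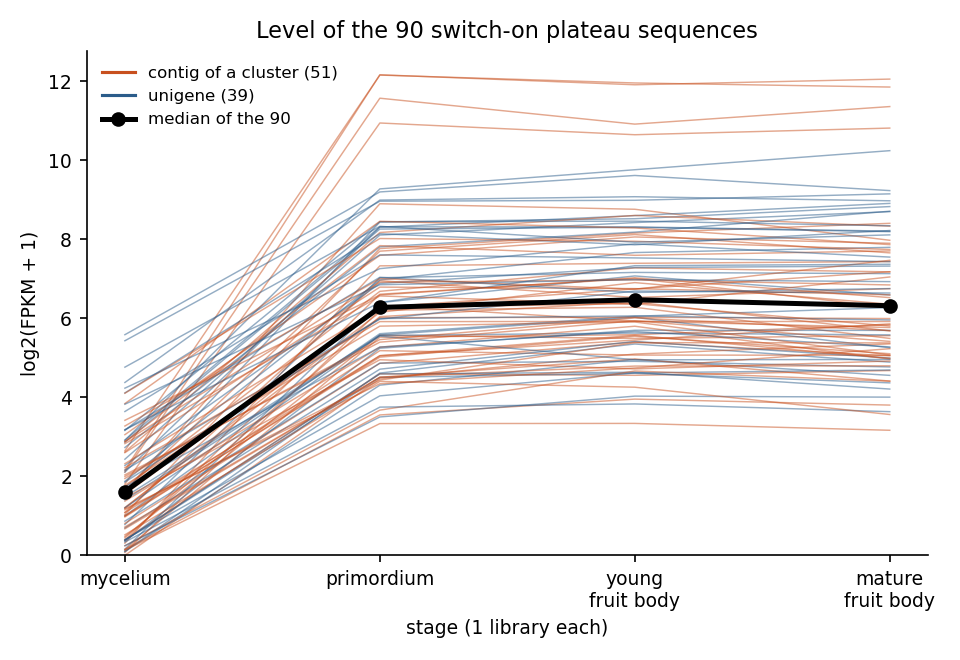
Level of each of the 90 members in the 4 libraries, as log2(FPKM + 1), with contigs of clusters in orange, unigenes in blue and the median over the 90 in black. Lines climb between mycelium and primordium and then stay within a range of 1, with median FPKM of 2.06, 76.5, 87.8 and 78.9 in order of stage.

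The median member had 2.06 FPKM in mycelium, 76.5 FPKM in primordium, 87.8 FPKM in young fruit body and 78.9 FPKM in mature fruit body. In mycelium the members ran between 0 and 47.1 FPKM, and the best placed of them ranked 1963 by abundance. Their lowest fruiting values were 9.10 FPKM in primordium, 9.13 FPKM in young fruit body and 7.98 FPKM in mature fruit body. Their median rank among all sequences was 12255.5 in mycelium, then 1405, 1265.5 and 1383.5 over the fruiting stages in order. Members among the 100 most abundant sequences of a library numbered 0, 4, 6 and 5 in order of stage.

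A few sequences carried much of this abundance. The 4 members with a mean fruiting level of at least 1000 FPKM made up 3.44% of the members' summed FPKM in mycelium, and 56.1%, 47.4% and 49.8% over the fruiting stages in order. Without these 4, the other members made up 0.0686% of the summed FPKM of the mycelium library and 2.09%, 2.37% and 2.33% of the 3 fruiting libraries. Below the leading 4, 40 members had a mean fruiting level between 100 and 1000 FPKM, 40 between 20 and 100 FPKM, and 6 under 20 FPKM. The median log2 difference between the lowest fruiting stage and mycelium was 9.02 in the highest of these levels, then 4.73, 4.02 and 3.28. The scale and the rule shape this order, since a low fruiting level leaves little room above the limit of 3.

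Mycelium levels did not follow this order throughout. The leading 4 members lay between 2.50 and 5.28 FPKM in mycelium, with a median of 3.39 FPKM. The 40 members between 100 and 1000 FPKM had a median of 6.31 FPKM in mycelium and ran there between 0.116 and 47.1 FPKM. The 40 between 20 and 100 FPKM had a median of 1.00 FPKM, and none exceeded 3.99 FPKM. The 6 members under 20 FPKM lay between 0.0942 and 0.435 FPKM in mycelium, with a median of 0.183 FPKM. The least abundant member, a contig of 1366 nt, had 0.0942 FPKM in mycelium, 9.10 FPKM in primordium, 9.13 FPKM in young fruit body and 7.98 FPKM in mature fruit body, from 2, 187, 192 and 171 fragments. Median lengths were 656.5 nt for the leading 4, 1725 and 1965 nt for the groups of 40, and 1258 nt for the lowest 6.

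CL3207.Contig2 (595 nt) had the largest rise of all members. Its level was 3.46 FPKM in mycelium, 4598 FPKM in primordium, 3858 FPKM in young fruit body and 4263 FPKM in mature fruit body. The mycelium value rested on 32 fragments and the fruiting values on 35354 to 41173 fragments. Its lowest fruiting value, in young fruit body, was 1115-fold the mycelium value, with a 95% counting interval of 790 to 1630. By abundance it ranked 8795 in the mycelium library and 3, 5 and 4 in the fruiting libraries in order.

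CL5829.Contig1 (988 nt) came next. It had 5.28 FPKM in mycelium, 4573 FPKM in primordium, 3983 FPKM in young fruit body and 3707 FPKM in mature fruit body. Its lowest fruiting value, in mature fruit body, was 703-fold the mycelium value (565 to 885). Primordium was its highest library and the fruiting values differed by at most 1.23-fold. The other contig of the same cluster, of 206 nt, had 2.50, 1972, 1605 and 1804 FPKM in order of stage and was also a member.

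**Figure D2:**
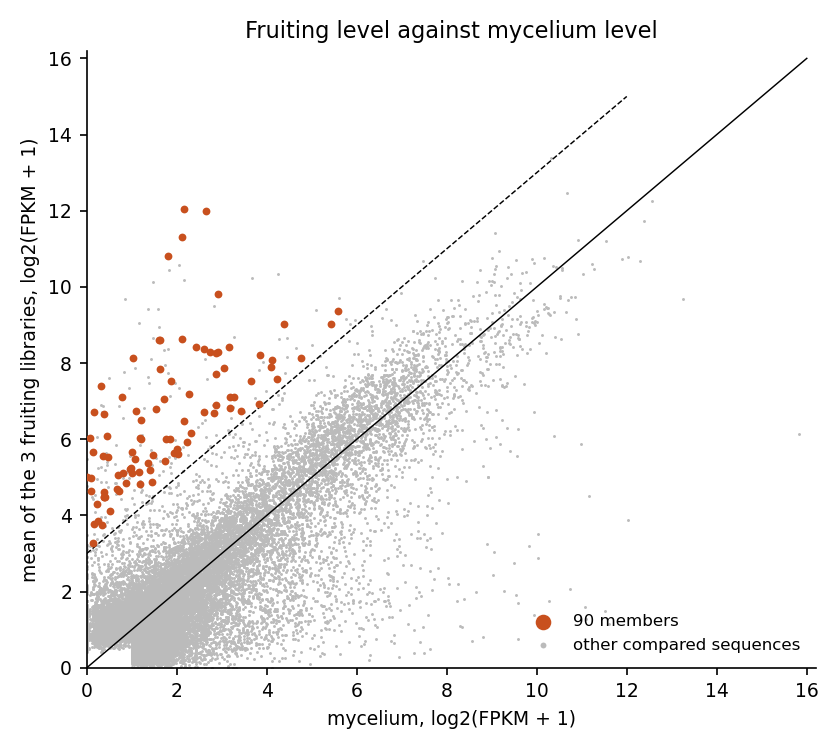
Mean of the 3 fruiting libraries against mycelium for the 22307 compared sequences, both as log2(FPKM + 1), with the 90 members in orange and other sequences in grey. The solid line marks equal levels and the dashed line a difference of 3, above which all members lie. Members span mycelium levels between 0 and 47.1 FPKM.

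The word switch-on holds for the size of the rise and not for a start from nothing. In mycelium 61 of the 90 members reached at least 1 FPKM, 10 reached 10 FPKM and 3 reached 20 FPKM. The member with the highest mycelium level, a unigene of 2817 nt, had 47.1 FPKM in mycelium, 587 FPKM in primordium, 785 FPKM in young fruit body and 602 FPKM in mature fruit body. At the other end, 29 members were below 1 FPKM in mycelium, and 16 rested there on at most 3 fragments. A contig of 821 nt had 0 fragments in mycelium and 21.2, 33.2 and 39.9 FPKM in the 3 fruiting stages in order. Its lowest fruiting value was 90.2-fold the level that 3 fragments would give in the mycelium library. That floor was set in advance, and no counting interval was taken for this member.

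Over the 89 members with mycelium fragments, the ratio of the lowest fruiting FPKM to the mycelium FPKM had a median of 37.1 and ran between 8.55 and 1115. This ratio reached 50 in 32 members, 100 in 18 and 500 in 7. Ratios that rest on few mycelium fragments are loosely fixed. A unigene of 557 nt with 1 fragment in mycelium had a ratio of 721 with a counting interval of 129 to 28513. The lower counting bound was at least 8 for 87 of the 89, and the smallest such bound was 7.42. The rule asks for 8-fold on FPKM + 1, so the ratio of every member had to exceed 8. These bounds cover counting error only, and no spread between replicates. Across the 90 members, mycelium level and mean fruiting level were ranked alike (Spearman's rho 0.73, a description over sequences that share the same 4 libraries). The rule itself shapes this relation, because a member with more in mycelium needs more in fruiting to qualify.

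The median log2 difference between the lowest fruiting stage and mycelium was 4.06 among members, against -0.25 over all 22307 compared sequences and 0.13 over the 5245 other flat profiles. Of the members, 40 lay between 3 and 4, 24 between 4 and 5, 13 between 5 and 6, and 13 at 6 or above. Close to the limit of the rise, the last member inside (952 nt) had a difference of 3.03, with 13.2 FPKM in mycelium and 114, 125 and 121 FPKM in the fruiting stages. The first sequence outside (3975 nt) had a difference of 2.996, with 5.70, 57.7, 55.4 and 52.4 FPKM in order of stage. At the limit of the range, the last member inside (1782 nt) spanned 0.99 and the first sequence outside (3427 nt) 1.01. Within 0.25 of the limit of the rise lay 9 members and 14 sequences outside, and within 0.25 of the limit of the range 17 members and 17 sequences outside.

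**Figure D3:**
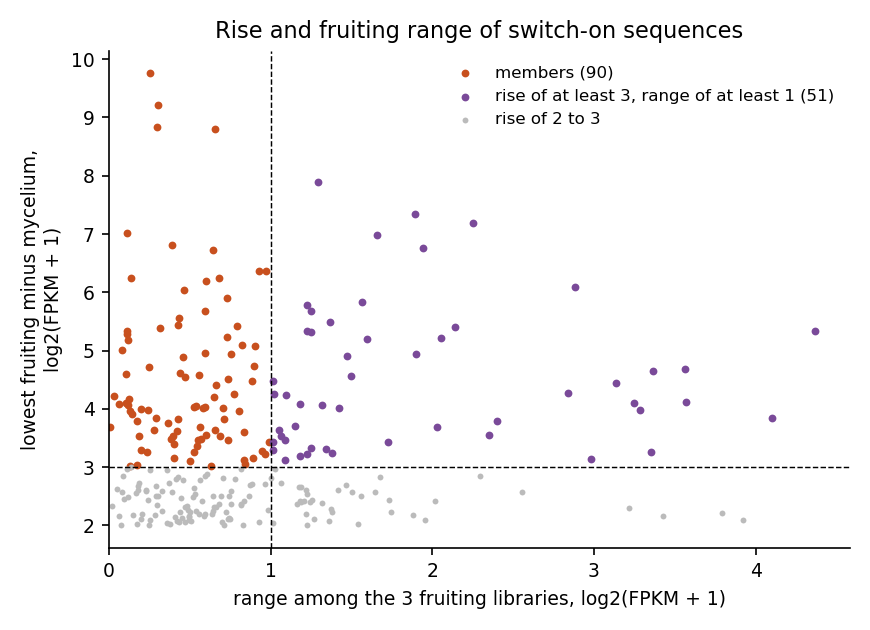
Lowest fruiting value minus mycelium against the range among the 3 fruiting libraries, both on the log2(FPKM + 1) scale, with dashed lines at the limits of 3 and 1. The 90 members (orange) fill the range between 0.00398 and 0.99, and the 51 sequences with a like rise and a wider range (purple) extend to 4.36.

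At the chosen limit of 1, sequences with a large rise more often had a plateau than not. This majority depends on the limit, as only 44 sequences met the rule with a range below 0.5. In all, 141 sequences, 0.632% of those compared, lay at least 3 above mycelium in each fruiting stage, and 90 of them (63.8%) stayed within a range of 1. The mirror group, at least 3 below mycelium in each fruiting stage, held 313 sequences (1.40%), of which 274 (87.5%) had a range below 1. The groups differ in level, which matters on this scale: the median of the lowest fruiting value was 62.1 FPKM in the 141 and 1.27 FPKM in the 313. With a pseudocount of 0.1 in place of 1 when the range is taken, the shares with a range below 1 were 63.1% and 70.6%. No such share was taken over other sequences of like level, so neither group is read as flatter or less flat than usual. For scale, 5335 of the 22307 compared sequences had a range below 1 with at least 5 FPKM in each fruiting stage. Both groups use the same mycelium library.

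Among the 51 sequences with a like rise but no plateau, mature fruit body was highest in 28 (54.9%), primordium in 13 and young fruit body in 10. Among the 90 plateau members, mature fruit body was highest in 23 (25.6%), primordium in 20 and young fruit body in 47. The range separates these groups by rule, and the difference in the order of stages was not tested. Median levels in the 51 were 1.56 FPKM in mycelium, 95.9 FPKM in primordium, 146 FPKM in young fruit body and 188 FPKM in mature fruit body. Their share of summed FPKM was 0.0363%, 2.27%, 3.03% and 4.10% in the same order, whereas the share of the members was level over the fruiting stages.

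The plateau was tight in some members and loose in others. The flattest member, a contig of 2213 nt, had 3.66 FPKM in mycelium, 59.5 FPKM in primordium, 59.6 FPKM in young fruit body and 59.6 FPKM in mature fruit body. In 15 members the highest fruiting value was under 1.1-fold the lowest, in 25 under 1.2-fold and in 53 under 1.5-fold, which leaves 37 that varied by 1.5-fold or more. Of the 5245 other flat profiles, 18.3%, 47.1% and 85.6% met these limits, against 16.7%, 27.8% and 58.9% of the members. The median range was 0.51 in the members and 0.26 in the other flat profiles. The name stable plateau therefore fits part of the members, and as a group they were less even over the fruiting stages than other flat sequences. The members were also more abundant, with a median mean fruiting level of 88.9 FPKM against 23.7 FPKM, and the part of this in the result was not tested.

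Young fruit body and primordium were compared first within the plateau. With FPKM as deposited, 66 of the 90 members were higher in young fruit body and 24 were lower, with a median log2 difference of 0.13. It was 0.02 over the other flat profiles and 0.03 over all compared sequences. The 95% counting interval of the ratio lay above 1 for 52 members (57.8%) and below 1 for 17 (18.9%). Over all 5335 flat profiles, members included, these shares were 24.9% and 20.8%. Members had a higher median fruiting level than the other flat profiles, 88.9 against 23.7 FPKM, which narrows their counting intervals. The part of this in the shares was not tested. Upper-quartile or median-of-ratios scaling left 49 of the 90 members higher in young fruit body.

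CL273.Contig13 (3471 nt) was the member most raised in this step, among the 79 with at least 20 FPKM in every fruiting stage. It had 1.22 FPKM in mycelium, 20.7 FPKM in primordium, 40.8 FPKM in young fruit body and 40.6 FPKM in mature fruit body. Young fruit body was 1.98-fold primordium (1.84 to 2.13), and the mature level was nearly the young one. Unigene331 (1060 nt) followed the same course, at 8.07, 83.6, 160 and 164 FPKM in order of stage, with a ratio of 1.92 (1.79 to 2.05). Both belong to the members that reached their plateau only in the young fruit body.

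In the other direction CL3192.Contig1 (718 nt) was lowest in young fruit body. It had 3.32 FPKM in mycelium, 3048 FPKM in primordium, 1934 FPKM in young fruit body and 2632 FPKM in mature fruit body. Young fruit body was 0.634 of primordium (0.624 to 0.645). Unigene5680 (703 nt), at 1.65, 45.8, 29.9 and 30.1 FPKM in order of stage, had a ratio of 0.653 (0.565 to 0.753) and kept the lower level afterwards.

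**Figure D4:**
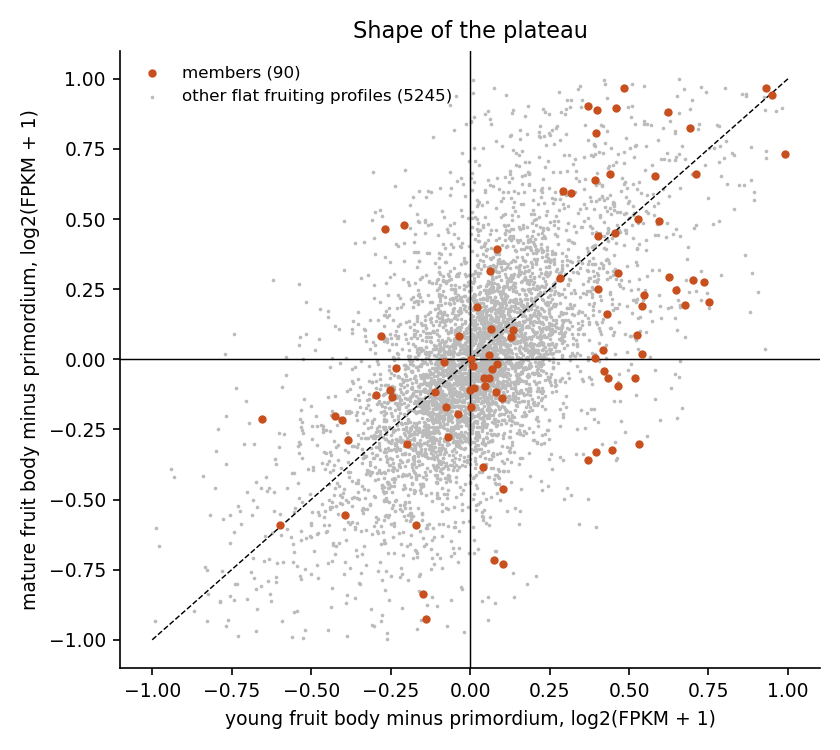
Mature fruit body minus primordium against young fruit body minus primordium, on the log2(FPKM + 1) scale, for the 90 members (orange) and 5245 other flat profiles (grey). On the dashed diagonal the mature and young levels are equal. Members lie to the right of the vertical line in 66 of 90 cases and below the diagonal in 57.

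From young to mature fruit body the balance ran the other way. Mature fruit body was higher in 33 members and lower in 57, with a median log2 difference of -0.10, against -0.04 over the other flat profiles. The counting interval lay above 1 for 24 members (26.7%) and below 1 for 41 (45.6%), against 19.9% and 31.0% over all flat profiles. Here too the members' higher level narrows their intervals, and its part was not tested. Under the 4 other scalings 59 to 62 members were lower in mature fruit body. The young fruit body library enters both steps, so their opposite balance is not 2 separate observations.

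CL5487.Contig1 (6209 nt) was the member with the largest increase at maturity, at 8.67, 128, 106 and 176 FPKM in order of stage. Mature fruit body was 1.67-fold young fruit body (1.63 to 1.71). CL3823.Contig2 (728 nt) was similar, at 6.10, 93.8, 81.1 and 131 FPKM in order of stage, with a ratio of 1.62 (1.49 to 1.76). In both, the young fruit body was the lowest of the fruiting stages.

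The largest decreases were those of CL4154.Contig2 (3518 nt) and CL1383.Contig8 (1255 nt). CL4154.Contig2 had 2.85 FPKM in mycelium, 54.8 FPKM in primordium, 59.0 FPKM in young fruit body and 32.6 FPKM in mature fruit body, a mature to young ratio of 0.553 (0.522 to 0.586). CL1383.Contig8 had 1.59, 37.6, 54.7 and 30.3 FPKM in order of stage and a ratio of 0.554 (0.50 to 0.613). The plateau of these members ended below the level at which it began.

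Over the whole plateau, mature fruit body set against primordium, the members were nearly balanced. Mature fruit body was higher in 48 and lower in 42, with a median log2 difference of 0.02. This direction depended on scaling, as 37 members were higher in mature fruit body at the upper quartile and 39 with median-of-ratios factors. The counting interval lay above 1 for 40 members (44.4%) and below 1 for 28 (31.1%), against 25.5% and 31.8% over all flat profiles. The limit set by the members' higher level applies to these shares as well.

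Unigene5705 (925 nt) was the member with the largest excess in mature fruit body over primordium beyond 20 FPKM. It had 6.54 FPKM in mycelium, 620 FPKM in primordium, 868 FPKM in young fruit body and 1213 FPKM in mature fruit body, with an increase in both steps of the plateau. Mature fruit body was 1.96-fold primordium (1.91 to 2.01). Unigene331, described above, came next with 1.97-fold (1.84 to 2.10), since the order was taken on log2(FPKM + 1). CL2240.Contig2 (4282 nt) showed the opposite course, with 2.04, 477, 433 and 251 FPKM in order of stage. Its mature level was 0.526 of the primordium level (0.516 to 0.536), close to the limit of the rule. CL4154.Contig2, described for the step to maturity, was next with 0.595 (0.561 to 0.632).

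Taking the 3 fruiting stages as a profile, 47 members peaked in young fruit body, 19 climbed over both steps, 14 were lowest in young fruit body, and 10 declined over both steps. As shares these are 52.2%, 21.1%, 15.6% and 11.1% of the members, against 33.2%, 21.2%, 20.9% and 24.6% of the other flat profiles. Primordium was the lowest fruiting stage in 44 members, mature fruit body in 32 and young fruit body in 14. The number that peaked in young fruit body was 37 under upper-quartile scaling and 35 with median-of-ratios factors, with 36 and 35 then highest in primordium. Under the same scalings the share of other flat profiles that peaked in young fruit body was 23.7% and 23.2%.

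Contigs that share a cluster with a member need not follow its profile. The 36 clusters with a member held 203 contigs, between 2 and 34 in a cluster, and 152 of these were not members. Of the 152, 87 stayed below 1 FPKM in every library. The other 65 comprised 7 with a like rise but a wider range, 29 that were at least 1 higher on the log2(FPKM + 1) scale in every fruiting stage than in mycelium, 3 that were at least 1 lower, and 26 that were neither. In shares, 10.8%, 44.6%, 4.62% and 40% of these cluster mates fell in those classes, against 0.183%, 4.45%, 11.2% and 84.1% of 13673 contigs of at least 1 FPKM in clusters without a member. The labels do not say how fragments were shared out among the contigs of a cluster, so values of cluster mates are not independent and their part in these shares was not tested. The 65 mates also had a higher median of mean fruiting level, 5.915 FPKM against 1.957 FPKM in the 13673 contigs. A low level leaves little room for a rise on this scale, and its part was not tested either.

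From a member's point of view, 36 of 242 pairings with another contig of its cluster (14.9%) led to another member. Pairings are counted from each member, so they are not separate observations. CL1383, with 4 members among 8 contigs, gave the most pairings that led to another member. Over the 133 pairings with a contig of at least 1 FPKM the share was 27.1%. Members were 0.128% of all 39842 contigs and 0.370% of the 13789 contigs of at least 1 FPKM. More than 1 member was found in 13 clusters, which held 28 members, and in 5 clusters every contig of at least 1 FPKM was a member. Members took more than 50% of their cluster's primordium fragments in 31 of the 36 clusters, with a median of 89.8%, against 19 clusters and a median of 58.9% in mycelium. The choice of members favours a larger share in primordium, so nothing is read from this difference. Summed FPKM over all contigs of a cluster was at least 3 higher on the log2 scale in every fruiting stage than in mycelium in 27 clusters, and between 1 and 3 higher in the remaining 9.

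**Figure D5:**
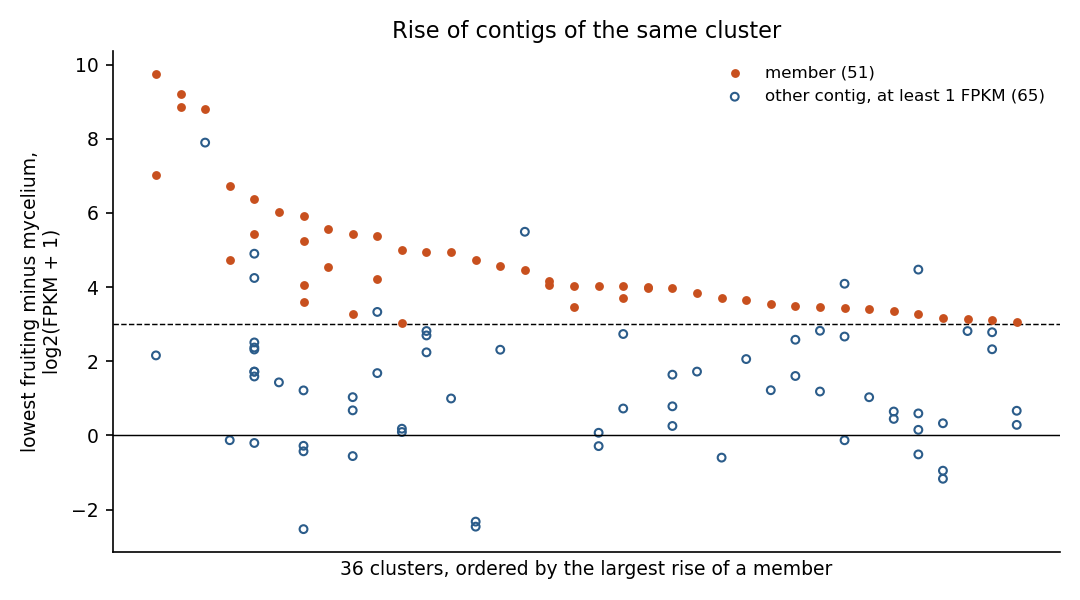
Lowest fruiting value minus mycelium, on the log2(FPKM + 1) scale, for the contigs of at least 1 FPKM in the 36 clusters with a member, 1 column for each cluster. Filled points are the 51 members and open points the 65 other contigs. Most open points lie below the dashed limit of 3, and 3 lie at -2.3 or lower.

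CL1383 held the most members, 4 of its 8 contigs. They had between 0.299 and 1.59 FPKM in mycelium, between 28.1 and 96.7 FPKM in primordium, between 41.3 and 128 FPKM in young fruit body and between 30.3 and 76.8 FPKM in mature fruit body. All 4 peaked in young fruit body. Its contig of 1190 nt ran against them, with 11.2 FPKM in mycelium and 1.12, 1.69 and 1.29 FPKM in the fruiting stages in order. The members took 89.5% of the cluster's fragments in primordium, against 16.8% in mycelium, a difference that the choice of members favours.

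CL566 was the largest, with 15 contigs, of the 12 clusters that held 2 members. Its members were long, at 7484 and 8118 nt. The shorter had 1.13, 123, 91.3 and 107 FPKM in order of stage and the longer 1.74, 30.0, 25.3 and 29.3 FPKM, so both were lowest in young fruit body among the fruiting stages. Together they took 97.3% of the cluster's primordium fragments and 66.5% of those in mycelium, and 10 of the other contigs were below 1 FPKM in every library.

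Elsewhere a contig outside the rule took a large part of the cluster. A cluster of 4 contigs had 2 members at 45.0 and 63.8 FPKM in primordium, beside a contig of 862 nt with 47.9 FPKM in mycelium, 1168 FPKM in primordium, 849 FPKM in young fruit body and 491 FPKM in mature fruit body. The members took 5.65% of that cluster's primordium fragments. The cluster of CL3192.Contig1 held a contig of 1135 nt that was no member, with 3.17 FPKM in mycelium, 993 FPKM in primordium, 1152 FPKM in young fruit body and 2437 FPKM in mature fruit body. On the log2(FPKM + 1) scale the rise of the member was 8.81 and its range over the fruiting stages 0.66, against a rise of 7.89 and a range of 1.29 for the contig outside the rule. The member took 39.8%, 66.0%, 51.5% and 40.6% of that cluster's fragments in order of stage, so the other contig held the larger part in mycelium and in mature fruit body.

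Several unigenes with a member's profile also carried consecutive identifier numbers, a pattern seen only after the values were known. Of the 39 unigenes, 8 stood in 3 runs of consecutive numbers. Each member unigene was paired with the number before and the number after it, which made 78 pairings. Of these, 10 (12.8%) led to another member, with neighbouring members counted from both sides. Over all unigenes, 0.345% were members. The neighbour had at least 1 FPKM in 69 of the pairings, a minimum that was not set for all unigenes. The longest run was of 4. These 4 were of like length, 2928 to 3052 nt, and differed in level. The more abundant pair had 318 and 348 FPKM in primordium against 6.56 and 7.95 FPKM in mycelium, and the others 62.8 and 46.4 FPKM against 2.62 and 1.79 FPKM. All 4 kept young and mature fruit body between 0.927 and 1.05 of their primordium level. A run of 2, of 871 and 922 nt, shared a peak in young fruit body at 1.69 and 1.60 of the primordium level, with 1 fragment each in mycelium. The labels do not say what consecutive numbers mean.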

How the data were processed

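The deposited values are FPKM, per the file headers. Aligner, counting tool and reference sequences are not stated by labels or headers. Columns were assigned to stages by the short names in the sample descriptions. From the FPKM, library denominators, lengths of at least 200 nt and whole fragment counts were recovered. All 50567 sequences above 0 gave whole counts, with a largest difference from the deposited FPKM of 5.1e-05. In a check of 1000 sequences of at least 0.5 FPKM in all libraries, 100% gave whole counts, against 3.2% with shifted denominators. The recovery was tested on simulated data. One fragment on 1000 nt was worth 0.0637 to 0.0665 FPKM.

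Members were found with a pseudocount of 1, which understates differences at low FPKM. With 1 library per stage no test was made. Ratios are of FPKM, with 95% Clopper-Pearson intervals on recovered fragments. Members, lists and comparisons were chosen with earlier results of these data known. Named within the plateau are the 2 largest increases and decreases of each step at 20 FPKM or more, and against mycelium the 2 largest rises. The clusters named are those with the most members, ties broken by the number of contigs. Alternatives changed the pseudocount, minimum, limits, scaling and libraries. Python 3.11.15, NumPy 2.4.6, pandas 2.3.3 and SciPy 1.17.1 were used.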

Additional observations from a re-analysis of the deposited data

How the results depend on the processing

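No paired analysis was possible because no stage has a second library. Alternatives that change the rule admit fewer or more sequences by construction. The 90 members became 181 with a pseudocount of 0.1 and 48 with 5, 184 and 50 with a rise of at least 2 and 4, and 44 with a range below 0.5. Without the primordium or the mature fruit body library in the rule they were 145 and 144. The other 10 alternatives gave 60 to 116, with 88 for a counting bound of 8. The 60 are of 75 clusters and unigenes, with the fragments of a cluster divided by its summed contig length. The 39 unigenes are the same either way, so every unit lost was 1 of the 36 clusters. Summed FPKM, used above for 27 clusters, is another measure. Under the 4 other scalings there were 97 to 108, which held at least 89 of the 90. Scaling shifted the median log2 difference of primordium and mycelium over all compared sequences by 0.22 (upper quartile), 0.11 (equal sums), 0.09 (median-of-ratios) and 0.05 (equal sums without the 50 most abundant). The mean share of summed FPKM over the 3 fruiting libraries, 4.64% as reported, was 4.73% and 4.26% with pseudocounts of 0.1 and 5, and 4.60% with at least 20 FPKM. It was 9.18% and 3.86% with a rise of at least 2 and 4, and 3.15% and 5.82% with a range below 0.5 and 1.5. Upper-quartile scaling gave 7.01%, median-of-ratios 4.88%, and equal sums 4.89%, with or without the 50 most abundant. Without primordium, young or mature fruit body in the rule it was 6.52%, 4.99% and 9.01%. The median log2 difference, 4.06, was 3.89 and 3.96 with pseudocounts of 0.1 and 5, and 2.97 and 5.05 with a rise of at least 2 and 4; the other 11 alternatives gave 4.02 to 4.22. The share highest in mature fruit body, 25.6%, was 37.9% without primordium in the rule. The other 13 alternatives gave between 18.2% (range below 0.5) and 34.8% (pseudocount of 0.1). The share of cluster mates that are members, 14.9%, was 10.6% with a pseudocount of 0.1 and 21.6% with a range below 0.5. For this share the other 13 alternatives gave 12.7% to 19.5%. Beyond changes by construction, the cause was not tested. Counting error limits the members with few mycelium fragments most.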
